A study of Mus musculus with 6 samples.

Results

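The proteasome subunit genes were followed in RNA sequencing of spleen cells, labelled as leukaemia cells, of mice that had received a bone marrow transplant. Members were the protein-coding genes of the deposited table whose RefSeq symbol begins with Psma, Psmb, Psmc, Psmd, Psme, Psmf or Psmg and a number. The immunoproteasome genes Psmb8, Psmb9 and Psmb10 were left out, which gave 48 members among 40808 gene IDs. By function 16 belong to the core, 17 to the cap, 6 to the activators and inhibitor and 7 to assembly chaperones. The other 2 taken in by the symbol rule are Psmc3ip and Psme3ip1, which encode no proteasome subunit. There were 3 libraries labelled as not receiving Dox (replicates 4, 5 and 6) and 3 labelled as receiving it (replicates 10, 11 and 12). The labels spell out neither Dox nor its dose or duration. What Dox acts on, and the strain, age and genotype of donors and recipients, are likewise not given in the sources used here. Nothing states that the libraries of a group came from separate mice, so p-values measure the spread between these libraries, which may be technical.

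The proteasome is the protease that degrades ubiquitin-tagged proteins in the cytosol and nucleus. Its core particle is a barrel of stacked rings: outer rings of alpha subunits form the gate, and inner rings of beta subunits carry the active sites in Psmb5, Psmb6 and Psmb7. The cap, or regulatory particle, has a base of ATPases that unfold substrates and a lid that removes ubiquitin. Activators such as PA28 (Psme1 and Psme2) can replace the cap and open the gate without ubiquitin, and dedicated chaperones assemble both particles. In blood cancers the proteasome is known as a drug target, and in immune cells interferon brings in the immunoproteasome forms of its catalytic subunits.

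Promoter sequences are shown for 5 members of the core and the activators, chosen for the motifs searched in them. Psmb5 and Psmb6 are catalytic genes that fell, Psma2 is an alpha gene that fell and Psma7 an alpha gene that did not pass the test, and Psme1 is an activator gene that is known to respond to interferon. The stretches run from 250 bases before to 50 bases after the annotated start in RefSeq, build GRCm38.p6, and read 5′ to 3′ on the strand of the gene. They lie at chr14:54617946-54618245, minus strand (Psmb5), chr11:70525107-70525406, plus strand (Psmb6), chr13:14612992-14613291, plus strand (Psma2), chr2:180042415-180042714, minus strand (Psma7) and chr14:55578244-55578543, plus strand (Psme1). Capitals mark a match, on either strand, to TGACNNNGC in Psmb5 and Psmb6, to CCAAT in Psma2 and Psma7, and to the interferon-stimulated response element core (GAAA, 2 bases of any kind, GAAA) in Psme1, where it lies on the other strand.
Psmb5: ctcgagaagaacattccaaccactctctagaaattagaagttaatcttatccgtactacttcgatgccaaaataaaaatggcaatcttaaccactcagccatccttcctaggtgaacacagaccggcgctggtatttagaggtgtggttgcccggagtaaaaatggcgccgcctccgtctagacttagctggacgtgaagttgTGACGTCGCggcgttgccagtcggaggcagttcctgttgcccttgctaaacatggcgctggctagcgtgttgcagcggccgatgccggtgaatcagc
Psmb6: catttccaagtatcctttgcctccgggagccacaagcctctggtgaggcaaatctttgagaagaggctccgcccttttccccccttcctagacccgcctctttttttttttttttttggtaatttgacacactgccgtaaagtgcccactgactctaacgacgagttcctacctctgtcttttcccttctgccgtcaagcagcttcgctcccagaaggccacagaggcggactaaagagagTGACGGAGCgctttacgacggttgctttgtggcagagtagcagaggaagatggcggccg
Psma2: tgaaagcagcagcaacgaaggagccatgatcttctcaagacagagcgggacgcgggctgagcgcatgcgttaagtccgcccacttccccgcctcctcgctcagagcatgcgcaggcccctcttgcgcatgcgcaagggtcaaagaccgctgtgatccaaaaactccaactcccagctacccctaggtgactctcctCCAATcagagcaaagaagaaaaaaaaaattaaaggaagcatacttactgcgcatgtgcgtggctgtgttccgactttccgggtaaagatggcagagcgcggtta
Psma7: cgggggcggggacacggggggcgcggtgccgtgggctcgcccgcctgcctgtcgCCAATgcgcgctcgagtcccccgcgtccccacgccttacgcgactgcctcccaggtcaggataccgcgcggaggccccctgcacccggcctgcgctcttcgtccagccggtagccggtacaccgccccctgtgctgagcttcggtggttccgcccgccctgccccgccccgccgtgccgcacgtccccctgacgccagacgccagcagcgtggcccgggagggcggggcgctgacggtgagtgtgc
Psme1: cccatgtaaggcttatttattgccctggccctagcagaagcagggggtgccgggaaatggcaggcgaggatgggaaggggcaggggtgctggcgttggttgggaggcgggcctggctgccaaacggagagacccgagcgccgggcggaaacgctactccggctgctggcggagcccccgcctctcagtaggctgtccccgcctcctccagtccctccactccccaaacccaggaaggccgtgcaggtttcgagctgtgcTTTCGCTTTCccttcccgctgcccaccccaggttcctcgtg

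TGACNNNGC is the core of the antioxidant response element, which the proteasome regulator Nfe2l1 is known to read. Searched on both strands, it was found in 6 of the 40 members with a promoter in the table (15%), against 12.5% of all 27025 promoters of the same length. In Psmb5 the match began 47 bases before the start and in Psmb6 it began 9 bases before it. CCAAT, the box bound by NF-Y, was found in 14 of the 40 (35%, against 37.9% of all promoters), and 7 of 12 core genes had it. Psma2, which fell, and Psma7, which did not pass the test, each held 1 copy. CACGTG, an E-box, was found in 3 of the 40 members (7.5%, against 7.24%). The interferon-stimulated response element core was found in 5 of the 40 (12.5%, against 3.49%): Psmb3, Psmd4, Psmd9, Psme1 and Psmg4. No match of one motif overlapped a match of another in the members, and a match is a description of the sequence. Shares of the members were near those of all promoters for 3 of the 4 motifs. The promoters of Psma8, Psmb1, Psmb2, Psmb7, Psmc3, Psmd3, Psmd7 and Psmg2 were not analysed here.

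Depth and makeup of the libraries may bear on every result below. Total counts ran from 5541486 to 8725767, of which the members took 32901 to 47290. Libraries were made from mRNA 3′ ends, 1 fragment per transcript, so counts were not scaled by length and the CPM used below (counts brought to 1 library total by TMM normalization) is a level of transcripts. Of 15 T cell markers 12 fell with Dox and Cd7 rose, and their summed level was 3191 to 3447 CPM without Dox and 301 to 398 with Dox. All 10 B cell markers rose (from 34.9 to 42.2 CPM up to 2039 to 2270 CPM), as did 7 of 10 myeloid markers (195 to 196 CPM without Dox and 1891 to 2047 with Dox), where Ly6g was at 0 counts in each library without Dox. The macrophage marker Adgre1 of the myeloid list fell, with a log2 fold change of -1.68. Of 10 erythroid markers 5 rose and 2 fell, with sums of 94378 to 104426 CPM without Dox and 133408 to 143378 with Dox. Of 8 stromal and endothelial markers 2 rose and 2 fell, with sums of 382 to 420.4 CPM without Dox and 339.6 to 527 with Dox. Among 10 interferon-response genes 8 rose and none fell (212 to 225 CPM without Dox and 508 to 622 with Dox), and among 10 cell cycle genes 8 fell and none rose (3869.7 to 4154 CPM without Dox and 2589 to 3146 with Dox). The defining T cell markers Cd3d and Cd3e were at 469 CPM and 175 CPM or more in each library without Dox, and at 17.6 CPM and 24.8 CPM or less in each library with Dox. All 6 libraries carry the label of leukaemia cells, but those with Dox had low T cell markers beside high B cell and myeloid markers, so these markers do not bear out 1 cell population under that label. The Y-linked gene Ddx3y had 223 to 313 counts without Dox and 0 with Dox (a 0 allows up to 3 counts), while Xist had 193 to 324 and 3347 to 5669 counts. Dox, sex-linked expression and cell makeup therefore follow the same split of the libraries and cannot be told apart. In bulk RNA, fewer cells of a type and less RNA per cell cannot be told apart either, and the part of cell makeup in the results below was not tested.

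Proteasome genes were mostly lower in the libraries with Dox, and the median change was further from 0 in the core than in the cap. Of the 48 members 47 passed the filter on low counts. In edgeR's quasi-likelihood test, with Benjamini-Hochberg adjustment over 14110 genes and a threshold of 0.05, 30 of them fell and 4 rose. That is 63.8% lower and 8.51% higher, against 22.1% lower and 23.6% higher among all tested genes (45.6% in either direction). The median log2 fold change of the 47 tested members was -1.18, against 0.07 for all tested genes. In 33 members all libraries with Dox lay below all without Dox, in 5 they lay above, and in 9 the groups overlapped; over all tested genes the shares were 29.6% below and 30% above, together 59.6%. With libraries scaled by size only, which shifts the median of all genes by 0.31, 24 members were lower and 7 higher, so that the share of higher calls among the called members went from 11.8% to 22.6%. Over all genes that share moved too, from 51.6% to 64.3%. Under this scaling the lower calls of Psma6, Psmd8, Psmd10, Psmd11, Psmd13 and Psmg1 were lost (adjusted p = 0.277, 0.129, 0.0564, 0.0869, 0.232 and 0.0895).

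**Figure D1:**
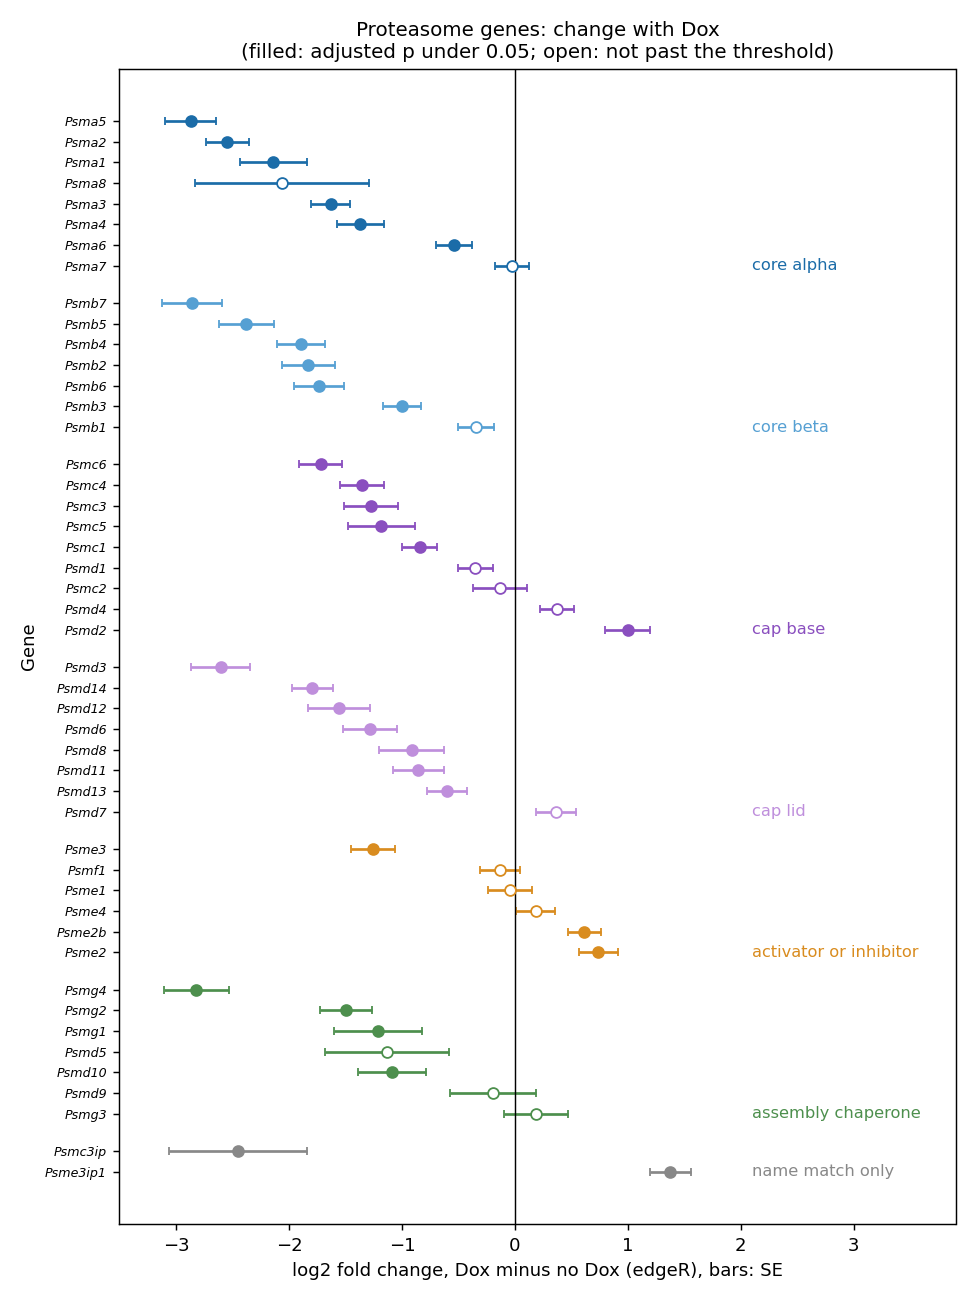
Log2 fold change (Dox minus no Dox, edgeR, x axis) of the 47 tested members (y axis), grouped by class; bars are SE and filled points passed an adjusted p of 0.05. Core points all lie below 0, from -2.87 (Psma5) to -0.02 (Psma7), while Psmd2, Psme2, Psme2b and Psme3ip1 are the filled points above 0.

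Transcript length moved with the fold change in these libraries. Among the 11992 tested genes with an annotated length, the 3000 with the shortest transcripts had a median log2 fold change of -0.68 and the 2997 with the longest had 0.51. The members are short, with a median of 1883 bases for the longest annotated transcript against 3450 for all genes, and 32 of the 47 were among those 3000 shortest. Removing a smooth length trend from each library left 20 members lower and 8 higher, with a median of -0.48, while over all 14110 genes 2831 were lower and 3223 higher. Under that setting 9 of the 12 lower core calls and 7 of the 12 lower cap calls remained. Within the members, length and log2 fold change had a Spearman correlation of 0.299 over 47 genes that share the same libraries. What makes length and fold change move together was not tested.

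**Figure D2:**
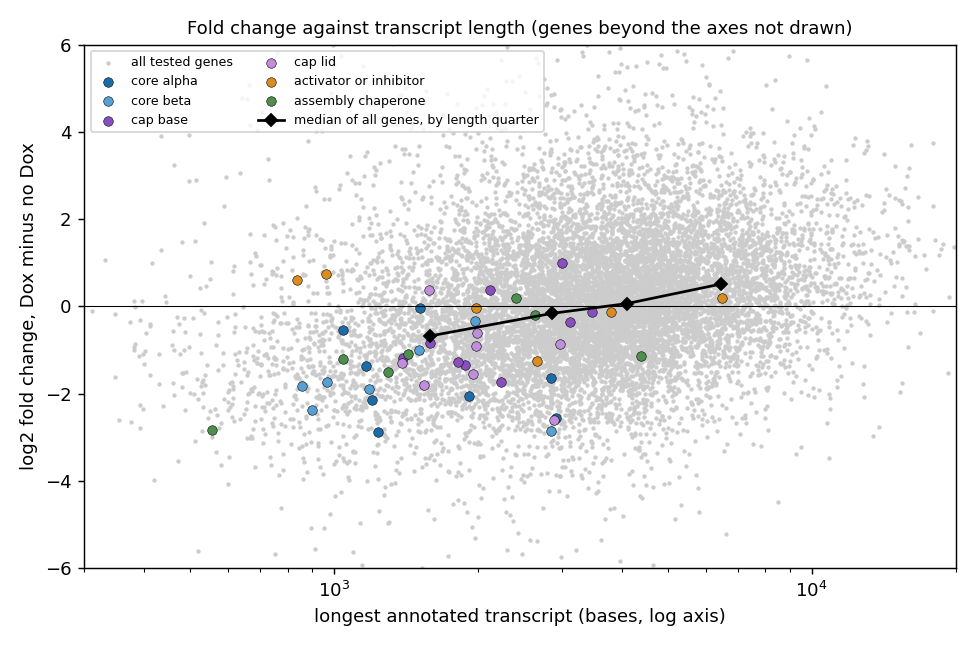
Log2 fold change (y axis) against the longest annotated transcript in bases (x axis, log scale) for all tested genes (grey) and the members of the core, cap, activator and chaperone classes (colours); diamonds are medians of all genes in 4 groups by length. The medians run from -0.68 to 0.51, and the members gather at the short end.

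Most core genes were lower with Dox. Of the 15 tested core genes 12 fell, none rose, and 3 (Psma7, Psma8 and Psmb1) did not pass the threshold; the median was -1.83. Core transcripts summed to 2947, 2933 and 3014 CPM without Dox and 1290.3, 1348 and 1361 with Dox. The groups were far apart in this sum, with a ratio of 0.45 between the means. The 3′ ends of Psma5, Psmb3 and Psmb5 match processed pseudogenes at 95% identity or more, so their counts may depend on how shared reads were treated. That of Psmb7 is identical over 255 bases to part of a transcript of Nek6. The search took matches on either strand without recording which, so the match to Nek6 does not by itself show shared reads.

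Alpha genes form the outer rings and the gate of the barrel. Psma5 had the largest change of the alpha genes, at 119.8, 109 and 114 CPM without Dox and 15.8, 19.1 and 11.7 with Dox (edgeR log2 fold change -2.87 with SE 0.22, adjusted p = 9.1e-06). The highest library with Dox was far below the lowest without Dox. Psma2 (389, 375 and 426 CPM without Dox and 81.1, 68.9 and 53.6 with Dox) and Psma1 (148, 134 and 134 CPM without Dox and 23.4, 48.4 and 22.4 with Dox) also fell, with log2 fold changes of -2.55 and -2.14. Psma3 and Psma4 fell less, with -1.63 and -1.37, and Psma4 lost its call with the length trend removed (log2 fold change -0.43, adjusted p = 0.14). Psma6 changed least among the alpha genes that fell, from 157, 141 and 145 CPM without Dox to 97.4, 112 and 95.4 with Dox (edgeR log2 fold change -0.54 with SE 0.16, adjusted p = 0.0195). Its call was lost without no-Dox replicate 4 (adjusted p = 0.0758) or 5 (adjusted p = 0.0504), and with the length trend removed it was higher instead (log2 fold change 0.48, adjusted p = 0.0272). Psma7, the most abundant alpha transcript, was at 502, 467 and 452 CPM without Dox and 487, 402 and 508 with Dox. The groups overlapped and the test was not passed (edgeR log2 fold change -0.02 with SE 0.15, adjusted p = 0.906), while with the length trend removed Psma7 was higher (log2 fold change 0.68, adjusted p = 0.00649). The ratio of Psma7 to Psma5 transcripts was 3.97 to 4.30 without Dox and 21.0 to 43.3 with Dox. Both were picked as the alpha genes with the smallest and the largest change, so this ratio differs between the groups by that choice. Psma8, the alternative alpha subunit of germ cells, had 19, 27 and 41 counts without Dox and 10, 8 and 11 with Dox. All Dox libraries were lower, at the limit of the test (edgeR log2 fold change -2.06 with SE 0.77, adjusted p = 0.0514), and it passed with DESeq2 (adjusted p = 0.0181) and with RLE scaling (adjusted p = 0.0484).

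Beta genes form the inner rings, and their summed level had the lowest ratio of Dox to no Dox among the classes (0.392), with a mean of 1246 ± 30.9 (SD, n = 3) in the libraries without Dox against 489 ± 49.9 (SD, n = 3) in the others. The catalytic genes Psmb7 and Psmb5 had the largest changes. Psmb7, with trypsin-like activity, was at 139.8, 133 and 153 CPM without Dox and 24.2, 22.4 and 12 with Dox (edgeR log2 fold change -2.86 with SE 0.27, adjusted p = 2.63e-05). Psmb5, with chymotrypsin-like activity and the main target of proteasome inhibitors, was at 126, 159 and 141 CPM without Dox and 21.8, 23.1 and 37.2 with Dox (edgeR log2 fold change -2.38 with SE 0.24, adjusted p = 4.45e-05). Psmb6, with caspase-like activity, was at 165, 159 and 146 CPM without Dox and 33.3, 50.3 and 57.9 with Dox (edgeR log2 fold change -1.73 with SE 0.22, adjusted p = 0.000172). In each of the 3 the Dox libraries lay below the rest, and each kept its call in all 17 alternatives. With the length trend removed the log2 fold changes of Psmb5 and Psmb6 shrank to -1.26 and -0.66 (adjusted p = 0.00224 and 0.0324). Psmb5, Psmb6 and Psmb7 together summed to 432, 451 and 441 CPM without Dox and 79.3, 95.8 and 107 with Dox, a ratio of 0.213 between the means. Of the structural beta genes, Psmb4, Psmb2 and Psmb3 fell, with log2 fold changes of -1.89, -1.83 and -0.997. With the length trend removed Psmb3 was at -0.30 and lost its call (adjusted p = 0.149). Psmb1 was nearest to 0, at 274, 267 and 249 CPM without Dox and 198, 237 and 187 with Dox. All its Dox libraries were below the others, but it did not pass the threshold (edgeR log2 fold change -0.34 with SE 0.16, adjusted p = 0.0991) except without Dox replicate 11 (adjusted p = 0.0428). Psmb11, the beta subunit of thymic epithelium, had 0, 1 and 0 counts without Dox and 1, 0 and 8 with Dox, which was under the low-count filter, and without that filter it did not pass (adjusted p = 0.618).

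**Figure D3:**
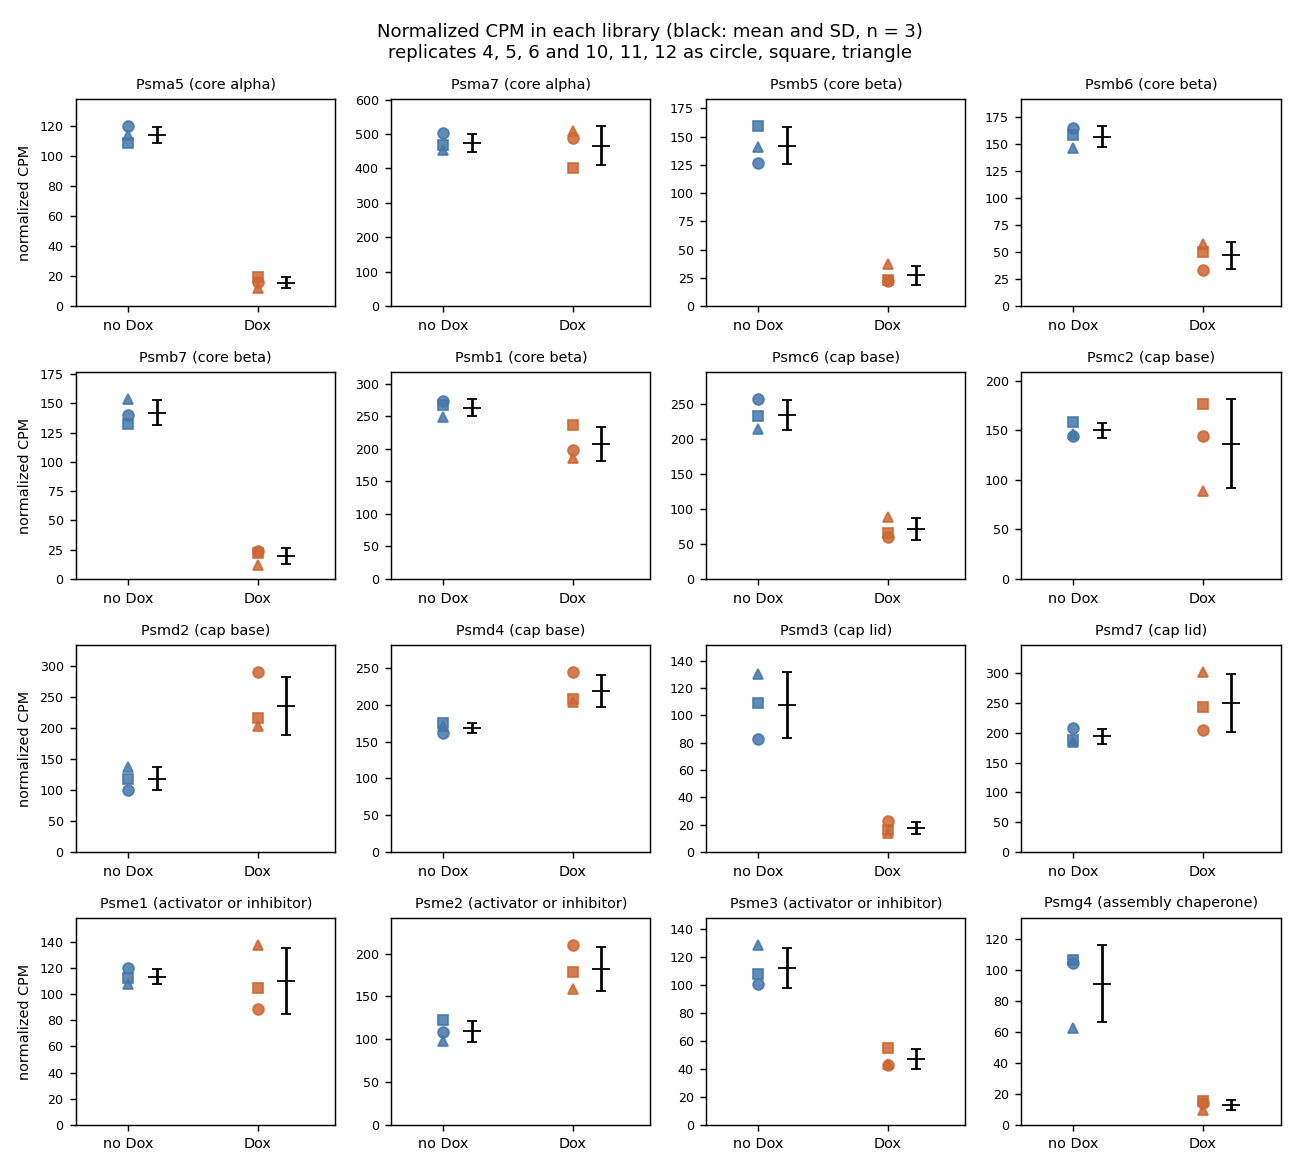
Normalized CPM (y axis, from 0) of 16 members in each library without Dox (blue) and with Dox (orange); black marks are the mean and SD of 3 libraries. Psma5, Psmb5, Psmb6, Psmb7, Psmc6, Psmd3 and Psmg4 show groups far apart, Psma7, Psmc2 and Psme1 overlap, and Psmd2 and Psme2 are higher with Dox.

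Cap genes were also mostly lower, but unequally so. Of 17 cap genes 12 fell and 1 rose, with a median of -0.91. Cap transcripts summed to 3051, 3099.6 and 3095 CPM without Dox and 2105, 2057 and 1939 with Dox. For each core transcript there were 1.04, 1.06 and 1.03 cap transcripts in the libraries without Dox, against 1.63, 1.53 and 1.43 in those with Dox. This ratio was higher in each Dox library than in any other.

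The base unfolds substrates and feeds them into the core. Of its 6 ATPase genes 5 fell, led by Psmc6 at 257, 233 and 215 CPM without Dox and 59.5, 65.9 and 88.6 with Dox (edgeR log2 fold change -1.72 with SE 0.19, adjusted p = 7.86e-05). Psmc4, Psmc3, Psmc5 and Psmc1 fell, with log2 fold changes of -1.35, -1.27, -1.18 and -0.84, of which Psmc5 (adjusted p = 0.338) and Psmc1 (adjusted p = 0.28) lost the call with the length trend removed. Psmc2 was at 145, 159 and 147 CPM without Dox and 145, 177 and 88.8 with Dox. Dox replicate 12 was the lowest library and Dox replicate 11 the highest, so that the groups overlapped (edgeR log2 fold change -0.13 with SE 0.24, adjusted p = 0.676); without replicate 12 the log2 fold change was 0.08. The scaffold and ubiquitin-binding genes of the base were Psmd1, Psmd2 and Psmd4. Psmd2, the scaffold that docks ubiquitin shuttles, rose from 100, 118 and 137 CPM without Dox to 289.9, 215 and 203 with Dox (edgeR log2 fold change 0.998 with SE 0.20, adjusted p = 0.00237). It was the only cap gene called higher, and it kept the call in all 17 alternatives, in some of which Psmd4 and Psmd7 were also higher. The 3′ end of Psmd2 has a copy of 97.4% identity, and 231 bases of that of Psmd1 are identical to another annotated transcript, so both may share reads. Psmd4, a ubiquitin receptor, was at 161, 175 and 171 CPM without Dox and 244, 208 and 205 with Dox. Each Dox library was above each library without Dox, yet the test was not passed (edgeR log2 fold change 0.37 with SE 0.15, adjusted p = 0.0709); it passed in 5 alternatives, with library size only at an adjusted p of 0.00562. Psmd1, the other scaffold gene, was at 337, 298 and 293 CPM without Dox and 256, 259.7 and 213 with Dox (edgeR log2 fold change -0.35 with SE 0.15, adjusted p = 0.0904). The ratio of Psmd2 to Psmd1 transcripts was 0.296 to 0.466 without Dox and 0.830 to 1.13 with Dox.

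The lid carries the deubiquitinase Psmd14 and its partner Psmd7. Of 8 lid genes 7 fell, with the largest change in Psmd3 at 82.4, 109 and 131 CPM without Dox and 22.5, 16.4 and 14.1 with Dox (edgeR log2 fold change -2.61 with SE 0.26, adjusted p = 3.53e-05). Psmd14 fell from 158, 146 and 136 CPM without Dox to 38.1, 48.6 and 40.2 with Dox (edgeR log2 fold change -1.79 with SE 0.18, adjusted p = 3.89e-05). Its partner Psmd7 was at 209, 188 and 185 CPM without Dox and 205, 243 and 302 with Dox (edgeR log2 fold change 0.37 with SE 0.18, adjusted p = 0.118), and the groups overlapped. With library size only (log2 fold change 0.67, adjusted p = 0.00772), with at least 10 counts in every library (0.49, adjusted p = 0.0384) or with the length trend removed (1.03, adjusted p = 0.00188) Psmd7 was higher. Transcripts of Psmd7 over those of Psmd14 went from 1.29 to 1.37 without Dox up to 5.01 to 7.51 with Dox. The structural lid genes Psmd12, Psmd6, Psmd8, Psmd11 and Psmd13 fell, with log2 fold changes of -1.55, -1.29, -0.91, -0.86 and -0.60. Of these, Psmd8 lost its call without no-Dox replicate 4, 5 or 6 (adjusted p = 0.0569, 0.0518 and 0.0824) and Psmd13 without no-Dox replicate 6 (adjusted p = 0.0562). Psmd6, Psmd8 and Psmd13 also lost it with the length trend removed (adjusted p = 0.0963, 0.181 and 0.463).

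**Figure D4:**
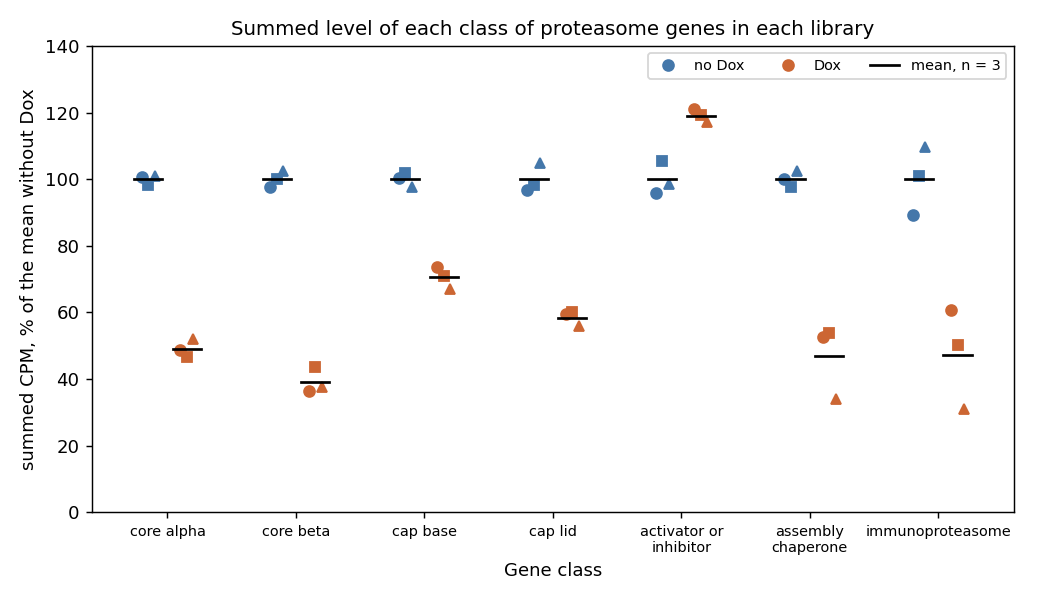
Summed CPM of each class in each library as a percentage of the mean without Dox (y axis), for the classes of members and the immunoproteasome genes (x axis); lines are means of 3 libraries. With Dox the core beta genes stand at a ratio of 0.392, the core alpha genes at 0.491, the base at 0.705 and the lid at 0.585. The activators and inhibitor stand at 1.19, which rests on the near-identical pair Psme2 and Psme2b.

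The activators and the inhibitor, which bind the ends of the core, were divided. Of the 6 genes 2 rose, 1 fell and 3 did not pass the threshold, with a median of 0.07. The shares of 33.3% higher and 16.7% lower are close to the 23.6% and 22.1% of all tested genes, and the 2 that rose are near-identical copies. Transcripts of all 6 genes summed to 673, 741 and 691 CPM without Dox and 849.6, 836 and 821 with Dox. This higher sum rests on the pair Psme2 and Psme2b, with means of 109 and 233 CPM without Dox and 182 and 357 with Dox. Among the other genes the mean was lower with Dox in Psme1, Psme3 and Psmf1 and higher in Psme4. Psme2, the beta chain of PA28, was at 108, 122 and 97.8 CPM without Dox and 209.7, 179 and 159 with Dox (edgeR log2 fold change 0.74 with SE 0.17, adjusted p = 0.00658). Psme2b, a single-exon copy of it on chromosome 11, was at 221, 259 and 219.9 CPM without Dox and 362, 369 and 339.9 with Dox (edgeR log2 fold change 0.61 with SE 0.15, adjusted p = 0.00704). In both genes each Dox library was higher. The last 300 bases of their transcripts are 99.0% identical, so their reads may be split or exchanged, and the 2 rises are not independent; the ratio of Psme2b to Psme2 was 2.04 to 2.25 without Dox and 1.73 to 2.14 with Dox. Both calls were lost without no-Dox replicate 4 (adjusted p = 0.052 for Psme2 and 0.0643 for Psme2b) and without no-Dox replicate 6 (adjusted p = 0.0696 and 0.068), which left 2 members higher in place of 4. Psme2b lost its call too when no low-count filter was used (adjusted p = 0.079). With the length trend removed both were further from 0, with log2 fold changes of 1.81 and 1.76. Psme1 (chr14:55578494-55581527), the alpha chain of PA28 and a neighbour of Psme2 (chr14:55587440-55591101), was at 119.7, 112 and 108 CPM without Dox and 88.3, 105 and 137 with Dox. The groups overlapped (edgeR log2 fold change -0.04 with SE 0.19, adjusted p = 0.876). The log2 fold changes of the PA28 chains were thus 0.74 and -0.04, and the difference between them was not tested. The sign of Psme1 was positive with library size only (0.27) and with the length trend removed (0.41). Psme3, the nuclear activator PA28 gamma, fell from 100.3, 108 and 128 CPM without Dox to 42.5, 54.9 and 43.2 with Dox (edgeR log2 fold change -1.26 with SE 0.19, adjusted p = 0.000533), with no overlap. Psme4, the activator PA200, was at 71.2, 83.5 and 81.2 CPM without Dox and 97.7, 80.6 and 89.6 with Dox (edgeR log2 fold change 0.18 with SE 0.17, adjusted p = 0.414). Psmf1, which encodes the inhibitor PI31, was at 52.1, 55.7 and 56.1 CPM without Dox and 49.3, 48.5 and 52.2 with Dox (edgeR log2 fold change -0.13 with SE 0.18, adjusted p = 0.585). In both the groups overlapped, and Psme4 was called higher with library size only (adjusted p = 0.0445).

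The assembly chaperones build the core and the base of the cap. Psmg1, Psmg2, Psmg3 and Psmg4 assemble the alpha ring, and Psmd5, Psmd9 and Psmd10 the base. Of these 7 genes 4 fell and none rose, and their transcripts summed to 332, 323 and 339 CPM without Dox and 174, 179 and 112 with Dox. Psmg4 was at 104, 107 and 62.6 CPM without Dox and 13.9, 15.2 and 9.49 with Dox (edgeR log2 fold change -2.82 with SE 0.29, adjusted p = 4.29e-05), and Psmg2 was at 46, 51.9 and 66.3 CPM without Dox and 21.1, 18.2 and 18.8 with Dox (edgeR log2 fold change -1.50 with SE 0.23, adjusted p = 0.000533). Both had groups well apart. Psmg3, the partner of Psmg4, was at 37.6, 39.5 and 45.1 CPM without Dox and 33.9, 68.5 and 36.4 with Dox, with Dox replicate 11 above all others (edgeR log2 fold change 0.19 with SE 0.29, adjusted p = 0.626). Without that library its log2 fold change was -0.24 in place of 0.19. Psmg1 fell, with a log2 fold change of -1.21, although its groups overlapped. Leaving out no-Dox replicate 4 or 6 or Dox replicate 11 or 12 ended that call (adjusted p = 0.0777, 0.111, 0.0764 and 0.0556), and with the length trend removed the log2 fold change was -0.20 (adjusted p = 0.712). Psmd10, also known as the oncoprotein gankyrin, fell (log2 fold change -1.09), with the call lost without no-Dox replicate 4 (adjusted p = 0.0537) and with the length trend removed (log2 fold change -0.33, adjusted p = 0.425). Psmd5 was at 25.4, 36.3 and 31.4 CPM without Dox and 15, 24 and 3.16 with Dox. Dox replicate 12 was far below the other Dox libraries, and the difference did not pass (edgeR log2 fold change -1.13 with SE 0.55, adjusted p = 0.121) except without Dox replicate 11 (adjusted p = 0.0316), without a low-count filter and with group variances. Psmd9 was at 30.3, 26.5 and 27.3 CPM without Dox and 36.5, 25.9 and 11.2 with Dox (edgeR log2 fold change -0.19 with SE 0.38, adjusted p = 0.704), with overlapping groups.

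The 2 members taken in by name moved in opposite directions. Psmc3ip, a partner of meiotic recombinases, was at 11.2, 18 and 27.1 CPM without Dox and 2.45, 6.48 and 1.19 with Dox (edgeR log2 fold change -2.45 with SE 0.61, adjusted p = 0.00848). All 300 bases searched at its 3′ end match a transcript of Mlx. The strand of that match was not recorded, so whether reads are shared with Mlx is not known. Psme3ip1, which encodes a protein that binds Psme3, rose from 43.4, 45 and 38.7 CPM without Dox to 126, 103 and 101 with Dox (edgeR log2 fold change 1.38 with SE 0.18, adjusted p = 0.000222), while Psme3 itself fell.

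Replicate spread differed between the groups. The median coefficient of variation of the 47 tested members was 8.33% without Dox and 22.7% with Dox, against 18.8% and 33.2% for all tested genes. Dox replicate 12 held the lowest Dox value in 26 of the 47 members and replicate 11 in 7. Leaving out Dox replicate 12 left 29 members lower and 5 higher. The added call was Psmd4 (adjusted p = 0.0273), and Psmg1 was lost.

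Other genes of the pathway were read from a list of 44 measured genes, of which 43 were tested, 13 fell and 4 rose. These shares of 30.2% and 9.3% stand against 22.1% and 23.6% of all tested genes. The 3 immunoproteasome genes, which replace the catalytic subunits, were not called higher. Psmb8 fell and was at 235, 221 and 214 CPM without Dox and 62.7, 73.1 and 53.1 with Dox (edgeR log2 fold change -1.83 with SE 0.18, adjusted p = 3.09e-05). Psmb9 scattered widely, at 90.9, 155 and 214 CPM without Dox and 154, 113 and 28.2 with Dox (edgeR log2 fold change -0.63 with SE 0.51, adjusted p = 0.338), and Psmb10 was at 73.4, 75.6 and 62 CPM without Dox and 54.8, 37.7 and 57.2 with Dox (edgeR log2 fold change -0.50 with SE 0.21, adjusted p = 0.0843). In Psmb9 the groups overlapped, and Dox replicate 12 was far below the rest. The ratio of summed immunoproteasome to summed catalytic transcripts was 0.926, 1.002 and 1.11 in the libraries without Dox, against 3.43, 2.34 and 1.29 in Dox replicates 10, 11 and 12.

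Subunits and a maturation factor outside the naming rule were lower too. Sem1, a small lid subunit, fell from 635, 572 and 543 CPM without Dox to 121, 106 and 40.7 with Dox (edgeR log2 fold change -2.71 with SE 0.34, adjusted p = 0.000171). Pomp, the chaperone that matures the beta ring, fell from 259.8, 365 and 335 CPM without Dox to 106, 108 and 89.6 with Dox (edgeR log2 fold change -1.66 with SE 0.18, adjusted p = 6.61e-05). Adrm1, a ubiquitin receptor of the cap, fell from 82.8, 86.3 and 82.2 CPM without Dox to 42.5, 48.5 and 41.4 with Dox (edgeR log2 fold change -0.92 with SE 0.17, adjusted p = 0.00185). In all 3 genes the groups did not overlap. Of 11 genes of enzymes and regulators bound to the proteasome 3 fell (27.3%, near the 22.1% of all tested genes) and none rose. Uchl5, a deubiquitinase of the cap, fell and was at 156, 158 and 159 CPM without Dox and 25.3, 37.9 and 55.9 with Dox (edgeR log2 fold change -1.99 with SE 0.27, adjusted p = 0.000228). The cap's other deubiquitinase gene, Usp14, did not pass (edgeR log2 fold change -0.32 with SE 0.20, adjusted p = 0.218).

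Rps27a, which encodes ubiquitin fused to a ribosomal protein, fell from 2147, 2367 and 2303 CPM without Dox to 324, 315 and 327 with Dox (edgeR log2 fold change -2.82 with SE 0.13, adjusted p = 9.87e-07). The polyubiquitin gene Ubb fell too, from 1885, 1876 and 2001 CPM without Dox to 560.3, 739 and 651 with Dox (edgeR log2 fold change -1.56 with SE 0.14, adjusted p = 2.48e-05). In both genes the groups did not overlap. Of 11 shuttle receptor and p97 genes, which bring substrates to the proteasome, 3 fell (Rad23b, Ubqln1 and Ubqln2, with log2 fold changes of -1.49, -1.31 and -1.44) and Ddi2 rose. The lower share was again 27.3%, near that of all tested genes.

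Of 9 tested transcription factors and cofactors known to act on proteasome genes, 3 rose (33.3%, against 23.6% of all tested genes) and none fell. Nfe2l1, which induces proteasome genes when the proteasome is impaired, was at 28.8, 28.8 and 27.1 CPM without Dox and 109, 77.3 and 70.6 with Dox (edgeR log2 fold change 1.6 with SE 0.22, adjusted p = 0.000263). Nfe2l2, the oxidative stress factor, was at 97.9, 76.4 and 79 CPM without Dox and 142, 124 and 178 with Dox (edgeR log2 fold change 0.81 with SE 0.19, adjusted p = 0.00708). Both had all Dox libraries above the others, opposite in direction to most subunit genes. The partner gene Mafg rose (log2 fold change 0.73), and Nfe2l3 had 2, 0 and 0 counts without Dox and 26, 34 and 8 with Dox. It was under the low-count filter, and of the 5 alternatives that tested it only the one without Dox replicate 12 called it higher (adjusted p = 0.0193), against adjusted p = 0.0529 to 0.151 in the others. Ddi2, the protease that activates the Nfe2l1 protein, was at 0.597, 0.811 and 1.02 CPM without Dox and 3.95, 6.18 and 4.09 with Dox (edgeR log2 fold change 2.53 with SE 0.79, adjusted p = 0.0246). The levels without Dox were close to the 3-count floor of 0.448 to 0.608 CPM in those libraries. The number of related genes called higher moved with single libraries. In place of 4 related genes called higher there were 2 without no-Dox replicate 4, 1 without replicate 5, 1 without replicate 6 and 8 without Dox replicate 12. Nfe2l2 lost its call without no-Dox replicate 5 (adjusted p = 0.076) or 6 (adjusted p = 0.0658), and Ddi2 without no-Dox replicate 4, 5 or 6 (adjusted p = 0.123, 0.113 and 0.0699) or Dox replicate 11 (adjusted p = 0.0566). Mafg lost it without no-Dox replicate 4, 5 or 6 (adjusted p = 0.103, 0.0524 and 0.101) or Dox replicate 10 (adjusted p = 0.0526). With the length trend removed Mafg and Ddi2 did not pass either (adjusted p = 0.081 and 0.0879), nor did they without a low-count filter (adjusted p = 0.0534 and 0.136), and Ddi2 did not with limma-voom (adjusted p = 0.0616). Nfe2l1 kept its call in all 17 alternatives.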

How the data were processed

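The authors deposited 1 table of raw counts per Entrez gene ID with 1 column per library, matched to samples by title (0 columns left over). Libraries were QuantSeq 3′ mRNA libraries, per the labels' protocols. STAR, featureCounts and GRCm38 are named in the submitters' processing notes; versions, annotation, strand setting and the treatment of reads mapping to several places are not given in the sources used here. Symbols came from RefSeq (GRCm38.p6; 96.5% of IDs matched), and transcript lengths from GENCODE M21. The test was that of edgeR 4.0.16, run in R 4.3.3 (filterByExpr with a minimum count of 10 and total of 15, TMM, quasi-likelihood F-test, 6 libraries, no covariate), adjusted by Benjamini-Hochberg over 14110 genes at 0.05. Each SE was derived from the F statistic. Floors of 3 counts cover counting error only. The test was also run on simulated counts, where it missed part of the changes put in. A gene that did not pass is therefore not shown to be unchanged. Library totals ran from 5541486 to 8725767.

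Alternatives were RLE, upper-quartile and no scaling, other filters, leaving out abundant gene families, DESeq2 1.42.0, limma-voom (limma 3.58.1), voomLmFit, a threshold of 0.01, removal of a length trend and leaving out each library. Members, lists and rules were chosen with earlier results of these data known. Full values were given for the catalytic, activator, inhibitor and low-count members, for the member of each class with the largest change and the one nearest 0, for members called against their class and for 9 related genes plus the largest change in each other related list; any other gene named was chosen with its values known. Some genes of the lists are not reported here. Among the 166 entries of the gene lists, Paaf1 was the 1 not found. Near-identical copies were searched with the last 300 bases of the longest protein-coding GENCODE transcript of each member. Other transcript ends were not searched. The search used blastn on both strands, with at least 95% identity over 100 bases. Of 12 members with a match, Psma5, Psmb3, Psmb5, Psmb11, Psmd1, Psmd2 and Psme1 matched pseudogenes or transcripts with no row in the table. Psmb7 (Nek6), Psmc3 (Slc39a13), Psmc3ip (Mlx), Psme2, Psme2b and Psmb11 matched genes with one. The strand of a match was not recorded, and counts of these members may depend on the treatment of shared reads.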

Additional observations from a re-analysis of the deposited data

How the results depend on the processing

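No paired analysis was possible because replicates 4 to 6 and 10 to 12 have no number in common. Of the 30 members called lower, 19 kept the call in each of the 17 alternatives that tested them (16 for Psmc3ip), and Psma6 alone was called in the opposite direction, with the length trend removed. The count of lower members ran from 20 to 31. With the length trend removed, 8 members were higher in place of 4, 7 cap genes lower in place of 12 and the median was -0.48. With library size only, 7 members and 7 related genes were higher and the median was -0.88. Related genes higher numbered 2 without a low-count filter and 2 at an adjusted p under 0.01. The median was -1.01 with 10 counts in every library, -1.31 with limma-voom and -1.32 with voomLmFit. Across fits that each left out one library, members higher ran from 2 to 5, members lower from 26 to 31 and related genes higher from 1 to 8. Signs reversed for these members and for Psmb10. With library size only these were Psme1 (0.27), Psmf1 (0.18), Psma7 (0.29), Psmd9 (0.13) and Psmc2 (0.185). With upper-quartile scaling they were Psme1 (0.055) and Psma7 (0.073), and with 10 counts in every library Psme1 (0.077) and Psma7 (0.093). With the length trend removed they were Psme1 (0.41), Psme4 (-0.27), Psma7 (0.68), Psma6 (0.48), Psmd9 (0.031), Psmb1 (0.11) and Psmb10 (0.35). Leaving out one library at a time gave ranges of -0.249 to 0.067 for Psme1 (positive without Dox replicate 10), -0.148 to 0.046 for Psma7 (Dox replicate 11), -0.385 to 0.084 for Psmc2 (Dox replicate 12), -0.617 to 0.133 for Psmd9 (positive without Dox replicate 12) and -0.24 to 0.34 for Psmg3 (negative without Dox replicate 11). The cause of these changes was not tested. Psma8, Psmc3ip and Ddi2 were too low to be tested at that minimum of 10 counts. Psmb11 in most libraries and Nfe2l3 in those without Dox were under the floor of 3 counts, where depth is the limit.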
